A study of Mus musculus with 12 samples.

Results

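The urea cycle enzymes described here are the products of Nags, Cps1, Otc, Ass1, Asl and Arg1. They were taken by gene symbol from the 54838 genes of a raw read count table, of which 26191 had at least 1 count, and all 6 were found with 1 row each. The RNA came from whole livers of 12 mice of the C57BL/6J strain, 3 in each of 4 groups, and the labels name no genetic change. In water-PBS, the control group, mice drank plain water for 7 days and were then given PBS intraperitoneally. In zinc-PBS they drank water with 25 mM ZnSO4 for those 7 days before the same PBS injection. In water-Dex, plain water was followed by intraperitoneal injection of dexamethasone (Dex, 200 µg), a synthetic glucocorticoid. In zinc-Dex, the ZnSO4 water was followed by the Dex injection. Every liver was taken 2 h after the injection, so all 4 groups share an injection and the short interval after it. The age and sex of each mouse are not given in the labels.

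The urea cycle turns toxic ammonia into urea and runs in full in hepatocytes, mainly those around the portal vein. In the mitochondria, N-acetylglutamate synthase (Nags) makes N-acetylglutamate, the obligatory activator of carbamoyl phosphate synthetase 1 (Cps1), which joins ammonia and bicarbonate to carbamoyl phosphate. Ornithine transcarbamylase (Otc) joins carbamoyl phosphate to ornithine, and the citrulline formed leaves for the cytosol. There argininosuccinate synthase (Ass1) adds aspartate, argininosuccinate lyase (Asl) splits the product into arginine and fumarate, and arginase 1 (Arg1) releases urea and restores ornithine. Glucocorticoids and glucagon are known inducers of several of these genes during fasting and on a high protein diet.

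The genes lie apart on GRCm38 (mm10) in the GENCODE M21 annotation. Nags (ENSMUSG00000048217) is at chr11:102145513-102149477 on the plus strand, Cps1 (ENSMUSG00000025991) at chr1:67123026-67231259 on the plus strand and Otc (ENSMUSG00000031173) at chrX:10252305-10321024 on the plus strand. Ass1 (ENSMUSG00000076441) is at chr2:31470207-31520672 on the plus strand, Asl (ENSMUSG00000025533) at chr5:130011258-130029247 on the minus strand and Arg1 (ENSMUSG00000019987) at chr10:24915221-24927484 on the minus strand. Exons of Nags share 443 bases with Gm11586 on the opposite strand, which had 17 counts over the 12 libraries.

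RefSeq promoter entries (GRCm38.p6) were matched for 3 of the 6 genes. All 3 are shown, and no entry was matched for Cps1, Asl and Arg1. As described below, Nags fell with Dex, Ass1 rose and Otc differed little. The bases printed end just before the first transcribed base in GENCODE M21, and for Ass1 the RefSeq start lies further downstream. Capitals mark the core of a metal response element, the site of the zinc-sensing factor MTF1, searched as TGCACNC and TGCGCNC.
Nags, chr11:102145263-102145512, plus strand: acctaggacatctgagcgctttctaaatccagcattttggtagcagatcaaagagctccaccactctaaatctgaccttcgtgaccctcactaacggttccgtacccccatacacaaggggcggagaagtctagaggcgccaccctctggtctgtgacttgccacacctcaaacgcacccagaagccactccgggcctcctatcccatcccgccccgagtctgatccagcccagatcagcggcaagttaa
Ass1, chr2:31470020-31470206, plus strand: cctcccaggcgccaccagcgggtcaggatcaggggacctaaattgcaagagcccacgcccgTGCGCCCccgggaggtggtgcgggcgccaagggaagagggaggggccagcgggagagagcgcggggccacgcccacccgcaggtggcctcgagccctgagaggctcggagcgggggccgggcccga
Otc, chrX:10252055-10252304, plus strand: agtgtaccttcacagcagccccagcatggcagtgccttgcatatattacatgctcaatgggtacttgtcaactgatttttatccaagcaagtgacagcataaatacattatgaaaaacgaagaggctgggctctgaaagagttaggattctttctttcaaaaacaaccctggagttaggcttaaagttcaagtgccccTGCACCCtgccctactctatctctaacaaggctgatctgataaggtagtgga
Both strands of the 250 bases before each RefSeq start were searched. TGCACNC occurred once before Otc, from -52 to -46, and in 10.4% of all 32851 promoters. TGCGCNC occurred once before Ass1, from -189 to -183, and in 12.5% of them. The glucocorticoid receptor hexamer AGAACA (16.1% of promoters), the full glucocorticoid response palindrome, the cyclic AMP response letters TGACG (17.8%) and TGACGTCA (1.55%, each of which also holds TGACG), the C/EBP site TTGCGCAA (0.164%), CCAAT (33.8%) and TATAAA (12.4%) were absent from these 3 windows. A match is a description of the letters and not a binding site.

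The libraries held 9091152 to 12303527 counts each. Together the 6 genes took 0.812% to 1.30% of a library, and each was well above any low count limit, with 6 of 6 tested in every comparison. Levels are normalized read counts (counts divided by DESeq2 size factors), as mean ± SD with n = 3. A gene is said to have passed at a DESeq2 adjusted p under 0.05 over all genes tested, and is said to be called when its log2 fold change was also above 0.8 in size. The series text names the replicates of a group as biological. Known responses followed the labels. The Dex-induced Tat stood at 62751 ± 1264 in water-Dex against 9502 ± 2345 in water-PBS, and the zinc-induced Mt1 at 5106 ± 1479 in zinc-PBS against 349 ± 122. Mt1 was also at 7558 ± 62.4 in water-Dex, so its level alone does not tell ZnSO4 from Dex. Each DESeq2 p-value sets a difference between groups against a spread between mice that all 4 groups share in the joint fit.

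Compared per length of the principal transcript, the abundant members were Ass1, Arg1 and Cps1. In water-PBS, Ass1 was at 13487 ± 2632 normalized counts per kb, Arg1 at 8955 ± 1964, Cps1 at 8487 ± 1413, Otc at 2741 ± 78.3, Asl at 1823 ± 520 and Nags at 311 ± 55.7. Arg1 and Cps1 overlapped in this order, and the other neighbours did not, although the lowest Ass1 library (11253) lay close to the highest Arg1 library (11164). In zinc-Dex the order was Ass1 (20253 ± 3052), Cps1 (13720 ± 1187), Arg1 (11192 ± 1411), Asl (3481 ± 432), Otc (2735 ± 76.4) and Nags (229 ± 22.3), again on the per kb scale. Asl thus lay below Otc in both PBS groups and above it in both Dex groups, without overlap between the genes in any group. Taken per length of all annotated exons together, Cps1 (8487) lay above Arg1 (5937) in water-PBS, and Asl lay below Otc with PBS. In water-Dex the means were then close, Asl at 1426 and Otc at 1381, and the libraries overlapped (1369 to 1459 and 1344 to 1413). In zinc-Dex those of Asl also overlapped with those of Otc (1505 to 1930 and 1471 to 1544).

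**Figure D1:**
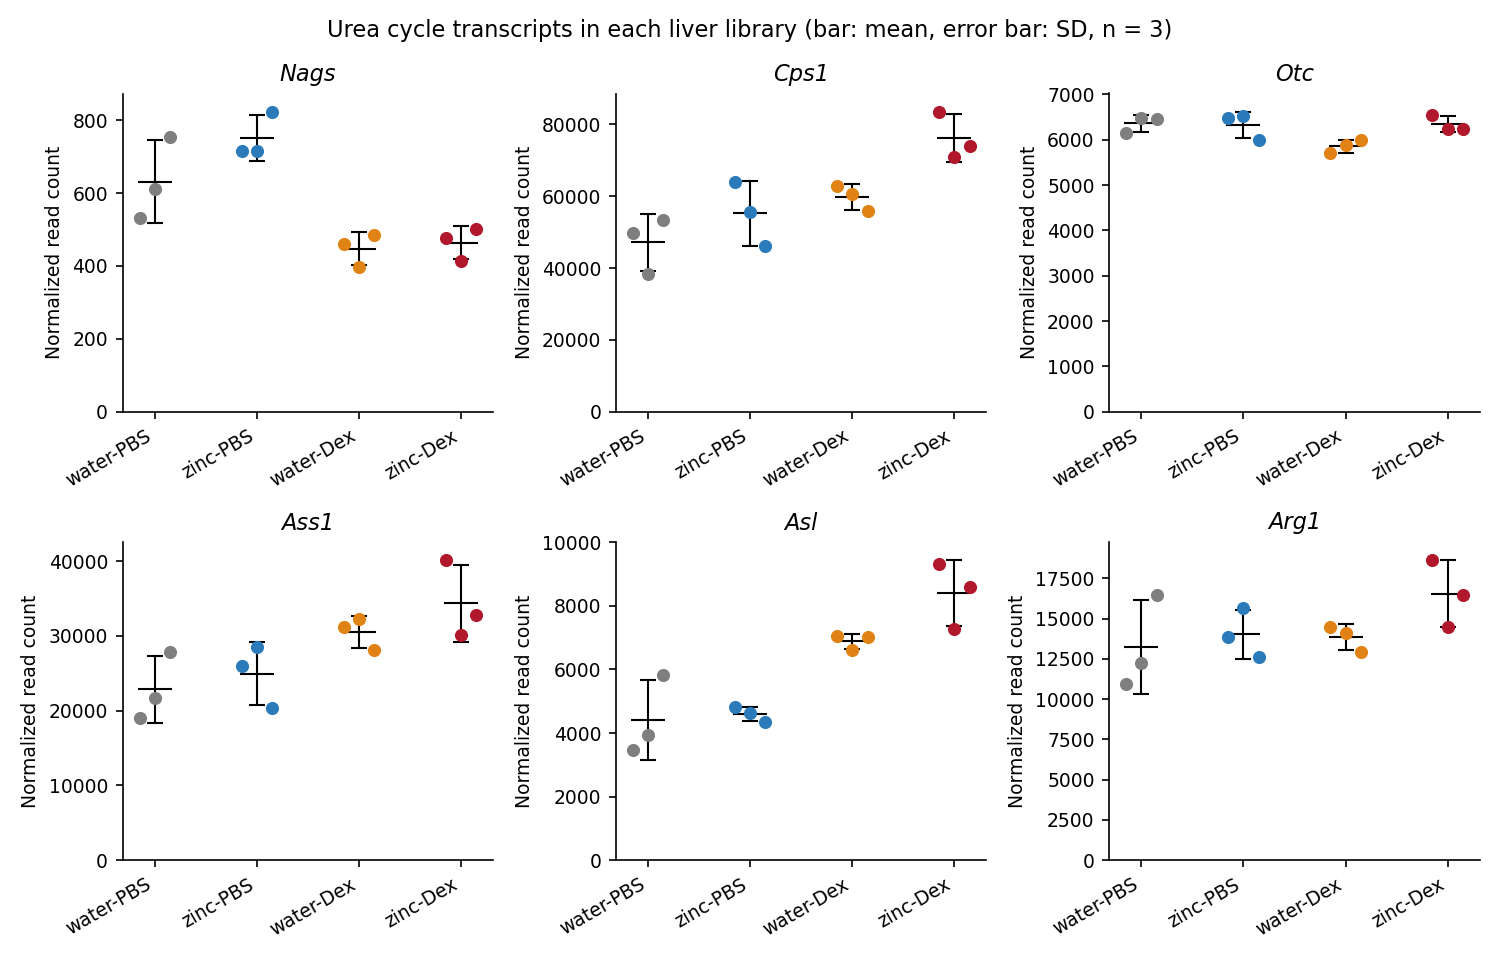
Normalized read counts (y axis, from 0) of the 6 urea cycle transcripts in each of the 12 livers by group (x axis). Points are libraries, the horizontal bar is the mean and the error bar the SD (n = 3). Nags was lower in all 6 Dex libraries (397 to 501) than in all 6 PBS libraries (530 to 824), Asl was higher in all 6 (6614 to 9326 against 3452 to 5824), and Otc stayed between 5702 and 6547 throughout.

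The first question was how Dex changed the cycle 2 h after injection in mice on plain water. Asl and Ass1 rose, Nags fell, and Cps1, Otc and Arg1 did not pass. So 3 of 6 members passed in water-Dex against water-PBS, where 21.6% of the 14221 genes tested passed, and none was called, where 9.68% of genes were. The libraries of both groups did not overlap for 5 of 6 members, as was so for 39.0% of genes. The median log2 fold change was 0.21 over the 6 members and -0.01 over all genes tested.

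Asl was at 3452, 3924 and 5824 normalized counts in water-PBS replicates 1 to 3, at 4812, 4632 and 4362 in zinc-PBS, at 7049, 6614 and 7005 in water-Dex, and in zinc-Dex at 9326, 7271 and 8600. Every Dex library was above every PBS library, and the third water-PBS library stood above the 5 other PBS libraries. In water-fed mice Asl rose 1.57-fold (log2 fold change 0.65, SE 0.158, DESeq2 adjusted p 0.000461). Without water-PBS replicate 3 the log2 fold change was 0.90, past the limit for a call, and without water-PBS replicate 1 it was 0.50. In zinc-fed mice Asl rose 1.83-fold (log2 0.87, SE 0.158, DESeq2 adjusted p 7.67e-07), the single member called. Leaving out zinc-Dex replicate 1 brought this to 0.79, so that it passed but was no longer called. With total counts it was 0.64, again not called, and Nags (-0.92) was the member called instead.

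Ass1 is the step that is often described as limiting for arginine synthesis outside the liver. It was at 19085, 21742 and 27794 normalized counts in water-PBS, at 26036, 28475 and 20329 in zinc-PBS, at 31224, 32288 and 28102 in water-Dex, and in zinc-Dex at 40139, 30169 and 32740. Each Dex group lay above the PBS group on the same water, but the lowest Dex library (28102) lay below the highest zinc-PBS library (28475). Ass1 rose 1.34-fold with Dex on plain water (log2 0.42, SE 0.157, DESeq2 adjusted p 0.0388) and 1.38-fold on ZnSO4 water (log2 0.46, SE 0.157, DESeq2 adjusted p 0.0200). The first no longer passed on leaving out water-PBS replicate 1, water-PBS replicate 2, water-Dex replicate 1 or water-Dex replicate 2 (log2 0.30 to 0.40, DESeq2 adjusted p 0.117 to 0.188), and the second without zinc-PBS replicate 3 or zinc-Dex replicate 1 (DESeq2 adjusted p 0.152 and 0.157). edgeR's quasi-likelihood test gave an adjusted p of 0.0631 for the first.

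A near-identical copy makes the level of Ass1 uncertain. Gm5424, annotated as a processed pseudogene at chr10:62071123-62072362, has 76.5% of its 50-base windows in the principal Ass1 transcript, and 55.3% of the windows of that transcript occur in Gm5424. Multimapping reads had been left out of the counts. Gm5424 still held 4010 to 8081 counts per library, a steady 21.2% to 22.4% of the Ass1 count. Its own log2 fold changes with Dex were 0.43 on plain water and 0.50 on ZnSO4 water. With the counts of both summed, an alternative added after seeing the data, Ass1 had log2 fold changes of 0.42 and 0.47 (DESeq2 adjusted p 0.0359 and 0.0168).

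Cps1, the most abundant of the 6 by reads, was at 49792, 38320 and 53331 normalized counts in water-PBS, at 64013, 55671 and 46060 in zinc-PBS, at 62957, 60546 and 55980 in water-Dex, and in zinc-Dex at 83613, 70955 and 74082. The 3 zinc-Dex libraries were the highest of all 12, and water-Dex lay above water-PBS without overlap but within the range of zinc-PBS. The difference between water-Dex and water-PBS was log2 0.34 (95% Wald interval 0.07 to 0.61) and did not pass (DESeq2 adjusted p 0.0577). It passed without water-PBS replicate 3 (log2 0.44, DESeq2 adjusted p 0.0180), without zinc-PBS replicate 1 or 3, and in a fit of only those 6 libraries (DESeq2 adjusted p 0.0309). Without water-PBS replicate 2 it was lower, at log2 0.22 (DESeq2 adjusted p 0.322). On ZnSO4 water Cps1 rose with Dex 1.38-fold (log2 0.46, SE 0.138, DESeq2 adjusted p 0.00611), which was lost without zinc-Dex replicate 1 or zinc-PBS replicate 3 (DESeq2 adjusted p 0.0542 and 0.0677).

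Nags, whose product activates Cps1, was lower with Dex on both waters. It was at 530, 611 and 753 normalized counts in water-PBS, at 717, 714 and 824 in zinc-PBS, at 460, 397 and 486 in water-Dex, and in zinc-Dex at 477, 413 and 501. All 6 Dex libraries were below all 6 PBS libraries, and both Dex groups covered much the same range. Nags fell to 0.709 of its water-PBS level in water-Dex (log2 -0.50, SE 0.140, DESeq2 adjusted p 0.0032) and to 0.617 of its zinc-PBS level in zinc-Dex (log2 -0.70, SE 0.139, DESeq2 adjusted p 8.24e-06). The fall on plain water was log2 -0.35 without water-PBS replicate 3 and did not then pass (DESeq2 adjusted p 0.0544).

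Otc was the most even member. Its levels were 6148, 6469 and 6455 in water-PBS, 6473, 6523 and 5997 in zinc-PBS, 5702, 5875 and 5993 in water-Dex, and for zinc-Dex 6547, 6238 and 6243, in normalized counts. The water-Dex libraries were the 3 lowest of the 12, by a small margin over zinc-PBS replicate 3. The log2 fold change with Dex was -0.12 on plain water (interval -0.24 to -0.00166, DESeq2 adjusted p 0.154) and 0.0026 on ZnSO4 water (interval -0.11 to 0.12).

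Arg1 was at 10939, 12252 and 16490 normalized counts in water-PBS, at 13830, 15635 and 12594 in zinc-PBS, at 14483, 14132 and 12939 in water-Dex, and in zinc-Dex at 18634, 14467 and 16492. The groups overlapped, and water-PBS replicate 3 was above every water-Dex library. The log2 fold change with Dex was 0.07 on plain water (interval -0.22 to 0.35, DESeq2 adjusted p 0.817) and 0.24 on ZnSO4 water (interval -0.05 to 0.52, DESeq2 adjusted p 0.284). Without zinc-Dex replicate 1 the second was 0.14.

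**Figure D2:**
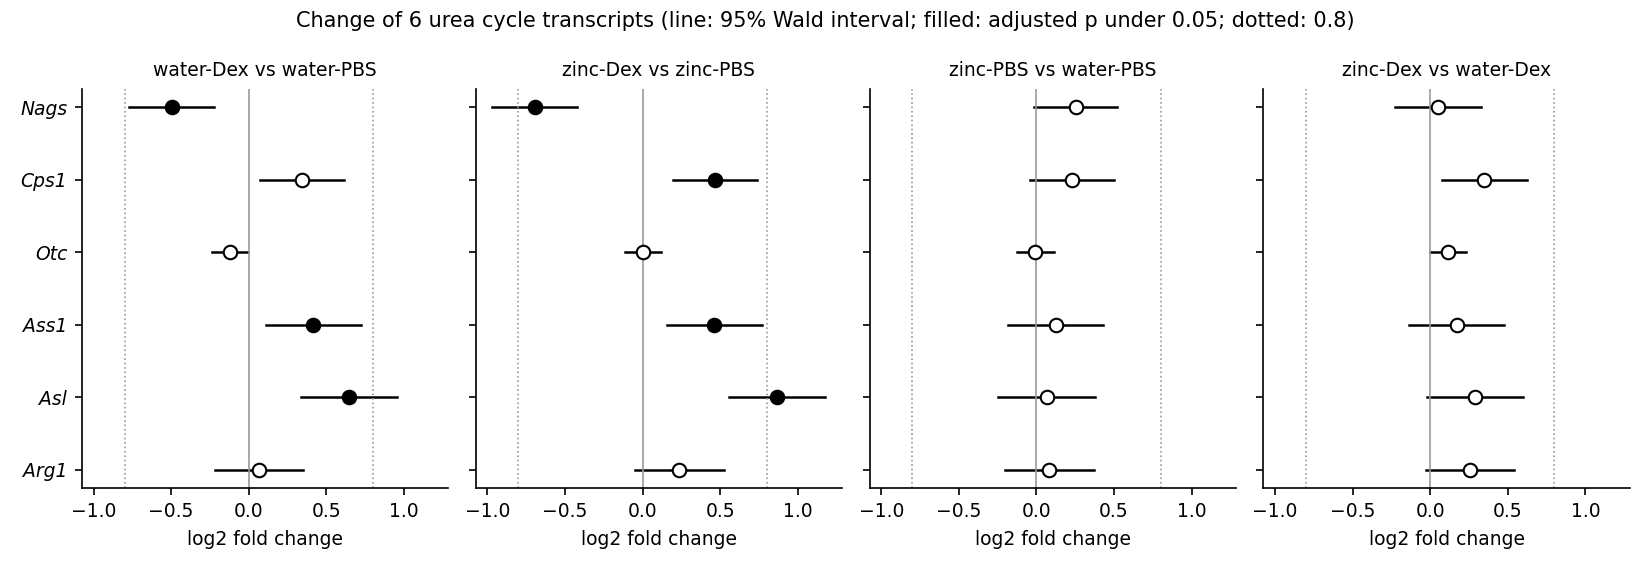
Log2 fold changes (x axis) of the 6 transcripts (rows) in 4 comparisons (panels), with 95% Wald intervals as lines. Filled points passed at a DESeq2 adjusted p under 0.05, and dotted lines mark the limit of 0.8 for a call. With Dex, Asl (0.65 and 0.87) and Nags (-0.50 and -0.70) lie farthest from 0, and no point is filled in the panels zinc-PBS against water-PBS and zinc-Dex against water-Dex.

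On ZnSO4 water, 4 of 6 members passed with Dex (Cps1, Ass1 and Asl higher, Nags lower), where 20.1% of the 15657 genes tested passed. Of the 6, 1 was called, where 9.68% of genes were, and 4 did not overlap, where 38.1% of genes did not. The median was log2 0.35 over the 6 members and -0.01 over all genes. No mouse is shared between this comparison and that on plain water. Whether the Dex effect differed with ZnSO4 was asked by the interaction term. No member passed it (DESeq2 adjusted p 1 for each of the 6), 0 of 6 had an unadjusted p under 0.05, and edgeR passed 0. Of 26185 genes, 0.0229% passed and 522 had an unadjusted DESeq2 p under 0.05. The largest estimates were 0.22 for Asl (interval -0.22 to 0.66) and -0.20 for Nags (interval -0.59 to 0.19). Without water-PBS replicate 3 they were -0.034 and -0.35.

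With both waters in an additive fit, 6 Dex livers against 6 PBS livers, Asl rose by log2 0.76 (SE 0.113, DESeq2 adjusted p 3.56e-10), Ass1 by 0.44 (SE 0.108, DESeq2 adjusted p 0.000343) and Cps1 by 0.40 (SE 0.0964, DESeq2 adjusted p 0.000199). Nags fell by 0.60 on the log2 scale (SE 0.0981, DESeq2 adjusted p 1.65e-08). Otc (-0.06, interval -0.14 to 0.03) and Arg1 (0.15, interval -0.05 to 0.35) did not pass. Arg1 passed without water-PBS replicate 3 (log2 0.25, DESeq2 adjusted p 0.0103). Thus 4 of 6 members passed where 30.1% of 17089 genes did, 0 of 6 were called where 10.5% of genes were (edgeR likewise called 0), and for Asl and Nags alone the 6 Dex libraries did not overlap the 6 PBS libraries, as for 17.4% of genes. Asl was called without water-PBS replicate 3.

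These values depend on how libraries are scaled. With total counts in place of size factors, the median log2 fold change of 9574 genes with a mean of at least 50 moved from 0.03 to -0.17 on plain water and from 0.02 to -0.20 on ZnSO4 water. On that scale 1 member passed higher and 2 lower on either water, against 2 higher and 1 lower on plain water and 3 higher and 1 lower on ZnSO4 water. The share of all genes that passed with total counts is not given here, so these counts have no background beside them. Asl still rose (log2 0.44 and 0.64) and Nags still fell (-0.69 and -0.92), Ass1 (0.22 and 0.23) and Cps1 (0.15 and 0.24) did not pass, and Otc passed as lower (-0.32 and -0.23). Arg1 took the other sign on plain water (-0.14) and was at 0.0088 on ZnSO4 water. Ass1 also did not pass in zinc-Dex against water-PBS (0.34), nor did Ass1 (0.22) and Cps1 (0.19) in the additive fit, while Otc passed as lower in both (-0.24 and -0.27). With total counts and the median gene subtracted, Asl stood at 0.62 and 0.84, Ass1 at 0.39 and 0.44, Cps1 at 0.32 and 0.44, and Nags at -0.52 and -0.72. A change of scaling moves all genes by nearly the same amount, and the subtraction takes that out. Values relative to the median gene are therefore alike under both scalings by construction, and they do not tell which scaling is right.

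Ratios between members within a library are free of scaling. The count of Cps1 to that of Nags was 75.8 ± 16.2 in water-PBS, 74.4 ± 17.0 in zinc-PBS, 135 ± 18.8 in water-Dex, and for zinc-Dex 165 ± 14.9. All 6 Dex libraries (115 to 175) lay above all 6 PBS libraries (55.9 to 93.9). Otc to Nags was higher with Dex as well (12.3 to 15.1 against 7.28 to 11.6). Otc to Asl was lower (0.702 to 0.888 against 1.11 to 1.78). The cytosolic pair moved too, Asl to Arg1 standing at 0.468 to 0.541 with Dex and at 0.296 to 0.353 with PBS. The 15 pairs are built from the same 6 genes. Dex and PBS libraries lay apart for 9 of them and overlapped for Cps1 to Otc, Ass1, Asl and Arg1, for Otc to Arg1 and for Ass1 to Asl. Pairs of other genes were not computed, so nothing is read from that count. Since a ratio shows unequal change only, these values do not say which member of a pair moved.

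**Figure D3:**
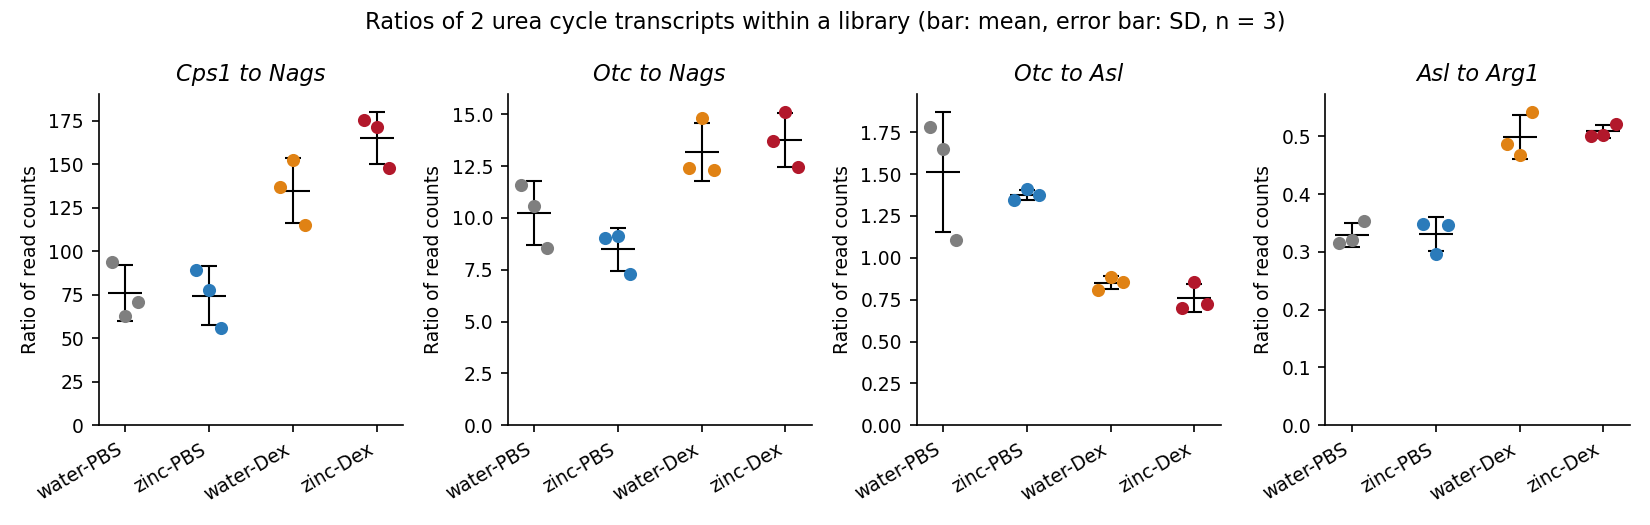
Ratio of the read counts of 2 urea cycle transcripts in the same library (y axis, from 0) for the 12 livers by group (x axis). Points are libraries, bars the mean and error bars the SD (n = 3). The 4 pairs shown were chosen among those that do not overlap. In them the 6 Dex libraries and the 6 PBS libraries are apart, as for Cps1 to Nags (115 to 175 against 55.9 to 93.9).

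ZnSO4 by itself was compared in PBS-injected mice, the same mice that served as controls for Dex. No member passed in zinc-PBS against water-PBS (DESeq2 adjusted p at least 0.905) and edgeR passed 0, where 0.341% of the 12307 genes tested passed. An unadjusted DESeq2 p under 0.05 was found for 0 of 6 members and for 706 of those genes. The libraries overlapped for all 6 members, whereas 11.9% of genes did not overlap. The estimates lay between -0.01 for Otc (interval -0.12 to 0.11) and 0.25 for Nags (interval -0.02 to 0.52), with Cps1 at 0.23 (interval -0.04 to 0.50). Leaving out 1 library moved both, and neither then passed. Cps1 ranged from 0.10, with water-PBS replicate 2 left out, to 0.34, with zinc-PBS replicate 3 left out. Nags ranged from 0.14 to 0.40, with water-PBS replicate 1 and then 3 left out.

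In Dex-injected mice no member passed with ZnSO4 either, in zinc-Dex against water-Dex, where 1.35% of 12786 genes did, and edgeR passed 0. Cps1, Otc and Asl were higher in all zinc-Dex libraries than in any water-Dex library, 3 of 6 members beside 20.0% of genes. Cps1 (log2 0.35, interval 0.08 to 0.62) was the single member with an unadjusted DESeq2 p under 0.05, beside 1299 of the 12786 genes. Its DESeq2 adjusted p was 0.256, and it passed in a fit of those 6 libraries alone (DESeq2 adjusted p 0.0265). Asl was at 0.29 (interval -0.02 to 0.60), Arg1 at 0.26 (interval -0.03 to 0.54) and Otc at 0.11 (interval -0.00177 to 0.23). Over all 12 libraries, 6 mice on ZnSO4 against 6 on plain water, Cps1 was 0.29 higher (interval 0.10 to 0.48) and did not pass (DESeq2 adjusted p 0.0781). Of the 11350 genes tested there, 2.68% passed, and no member passed with DESeq2 or edgeR. An unadjusted DESeq2 p under 0.05 was found for 1 of 6 members and for 1586 of those genes. Without water-PBS replicate 3, Cps1 (0.34), Asl (0.30) and Arg1 (0.26) passed (DESeq2 adjusted p 0.0145, 0.0023 and 0.031), and without zinc-PBS replicate 3 Cps1 did (0.35, DESeq2 adjusted p 0.0075).

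The livers that had received both agents were last set against the controls, a comparison that shares its water-PBS mice with the effect of Dex on plain water. In zinc-Dex against water-PBS 4 of 6 members passed, where 14.8% of 21401 genes did, with 1 called (7.24% of genes) and 4 without overlap (29.5% of genes). Asl rose 1.91-fold (log2 0.93, SE 0.158, DESeq2 adjusted p 1.09e-07), Cps1 1.62-fold (log2 0.69, SE 0.138, DESeq2 adjusted p 1.13e-05) and Ass1 also rose (log2 0.59, SE 0.157, DESeq2 adjusted p 0.00216). Nags fell to 0.735 of the control level (log2 -0.44, SE 0.140, DESeq2 adjusted p 0.0134), which was lost without water-PBS replicate 3 or zinc-Dex replicate 2. Arg1 stood at 0.32 (interval 0.04 to 0.61, DESeq2 adjusted p 0.138) and passed without water-PBS replicate 3 (log2 0.51, DESeq2 adjusted p 0.000511) or zinc-Dex replicate 2. Without water-PBS replicate 1 it was 0.20 (DESeq2 adjusted p 0.374). For Asl the call was lost without water-PBS replicate 1, though it still passed.

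Genes that serve the cycle were then read from 6 lists (transport, supply, use, regulators, periportal and pericentral genes). Beside the counts below stand the 21.6% of all genes tested that passed with Dex on plain water and the 20.1% that passed on ZnSO4 water, and no list was tested as a group. Those shares rest on size factors, and none is given for the counts with total counts. Of 11 transporter genes, 10 were tested with Dex on plain water, of which 5 passed higher and 2 lower, and on ZnSO4 water 6 passed higher and 0 lower (4 and 2, and 6 and 1, with total counts). The median of the tested genes was log2 0.45 and 0.60, beside -0.01 over all genes on either water. Slc25a15, the mitochondrial ornithine carrier that returns ornithine to Otc, rose from 4078 ± 574 normalized counts in water-PBS to 13298 ± 2039 in water-Dex (log2 1.71) and from 3841 ± 344 in zinc-PBS to 15648 ± 1505 in zinc-Dex (log2 2.03). The glutamine and alanine importer Slc38a2 rose most (log2 2.43 and 2.60), followed among importers by the arginine and lysine carrier Slc7a2 (1.41 and 1.48). The mitochondrial basic amino acid carrier Slc25a29 passed on ZnSO4 water (log2 1.42), from 27.3 ± 11.3 to 73.1 ± 13.7.

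The next 4 carriers were under the limit for a call and were chosen with their values in view. The aspartate and glutamate carrier Slc25a13, which supplies aspartate to Ass1, rose on either water (log2 0.40 and 0.46). The glutamine transporter Slc38a3 fell on plain water (-0.72) and was at -0.17 on ZnSO4 water (interval -0.54 to 0.20). It was higher in zinc-Dex than in water-Dex (log2 0.78, DESeq2 adjusted p 0.00582), as was the neutral amino acid carrier Slc38a4 (log2 0.43, DESeq2 adjusted p 0.00737). Slc38a4 also rose with Dex on both waters (0.49 and 0.73), and Aqp9, a channel for glycerol and urea, fell on plain water (-0.37).

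Of 10 genes that supply nitrogen, bicarbonate and aspartate, 2 passed higher on plain water and 4 on ZnSO4 water, and none passed lower (2 higher and 1 lower, and 2 higher and 0 lower, with total counts). The 2 of 10 on plain water are near the share of all genes. The list medians were log2 0.11 and 0.15. Got1, the cytosolic aspartate aminotransferase, was called on both (log2 1.27 and 1.61), rising from 2495 ± 371 to 6021 ± 488 and from 2758 ± 375 to 8398 ± 1203 normalized counts. It was also higher in zinc-Dex than in water-Dex (log2 0.48, DESeq2 adjusted p 0.0452), though not with total counts. Fh1, a fumarase gene whose enzyme takes up the fumarate that Asl releases, rose by 0.47 and 0.63 and was named after its value was seen. Car5a and Mdh2, named likewise, passed on ZnSO4 water (0.36 and 0.28).

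Of 10 genes that use arginine or ornithine, 3 passed higher and 1 lower on plain water, and likewise on ZnSO4 water (2 and 4, and 2 and 3, with total counts). On plain water 8 of the 10 could be tested and on ZnSO4 water 9, with medians of log2 -0.13 and 0.08. Odc1, the first step of polyamine synthesis, rose by log2 0.81 and 0.74. The nitric oxide synthase gene Nos3 rose from 22.7 ± 4.3 to 81.0 ± 13.5 (log2 1.83) and from 21.1 ± 3.5 to 77.5 ± 20.1 (log2 1.88). Azin1, the antizyme inhibitor, rose (0.48 and 0.45) and Gatm, which uses arginine for creatine synthesis, fell (-0.66 and -0.61), both named after their values were seen. The second arginase gene Arg2 had at most 7 counts in a library.

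Of 12 regulator genes, 4 passed higher and 2 lower on either water (3 and 5, and 4 and 4, with total counts). The list medians were log2 -0.05 and 0.0050. Cebpb, a stress-induced C/EBP factor, rose from 505 ± 115 to 2212 ± 122 normalized counts (log2 2.13) and from 543 ± 206 to 2433 ± 50.4 (log2 2.16). Cebpa, a C/EBP factor of the differentiated hepatocyte, fell from 3443 ± 645 to 1860 ± 109 (log2 -0.89) and from 3841 ± 327 to 1930 ± 216 (log2 -0.99). Foxo1 (1.30 and 1.38) and Klf15, a factor that promotes amino acid catabolism (1.15 and 1.43), were called on both waters.

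The zonated genes did not move as 1 group. Of 6 periportal genes, 1 passed higher and 3 lower on plain water, and 1 higher and 1 lower on ZnSO4 water (1 and 4, and 1 and 3, with total counts). Their medians were log2 -0.20 and -0.03. Sds, serine dehydratase, rose (log2 2.23 and 2.21). Of 7 pericentral genes, 1 passed higher and 2 lower on plain water and 2 higher and 2 lower on ZnSO4 water (1 and 2 on either water with total counts). Here the medians were log2 -0.0040 and 0.10. The Wnt target genes Lgr5 (-1.71 and -1.69) and Axin2 (-1.42 and -1.32) fell, while Glul, the pericentral glutamine synthetase, rose (0.43 and 0.55) and was named after its value was seen. In these lists 0 of the genes that passed took the other sign with total counts.

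**Figure D4:**
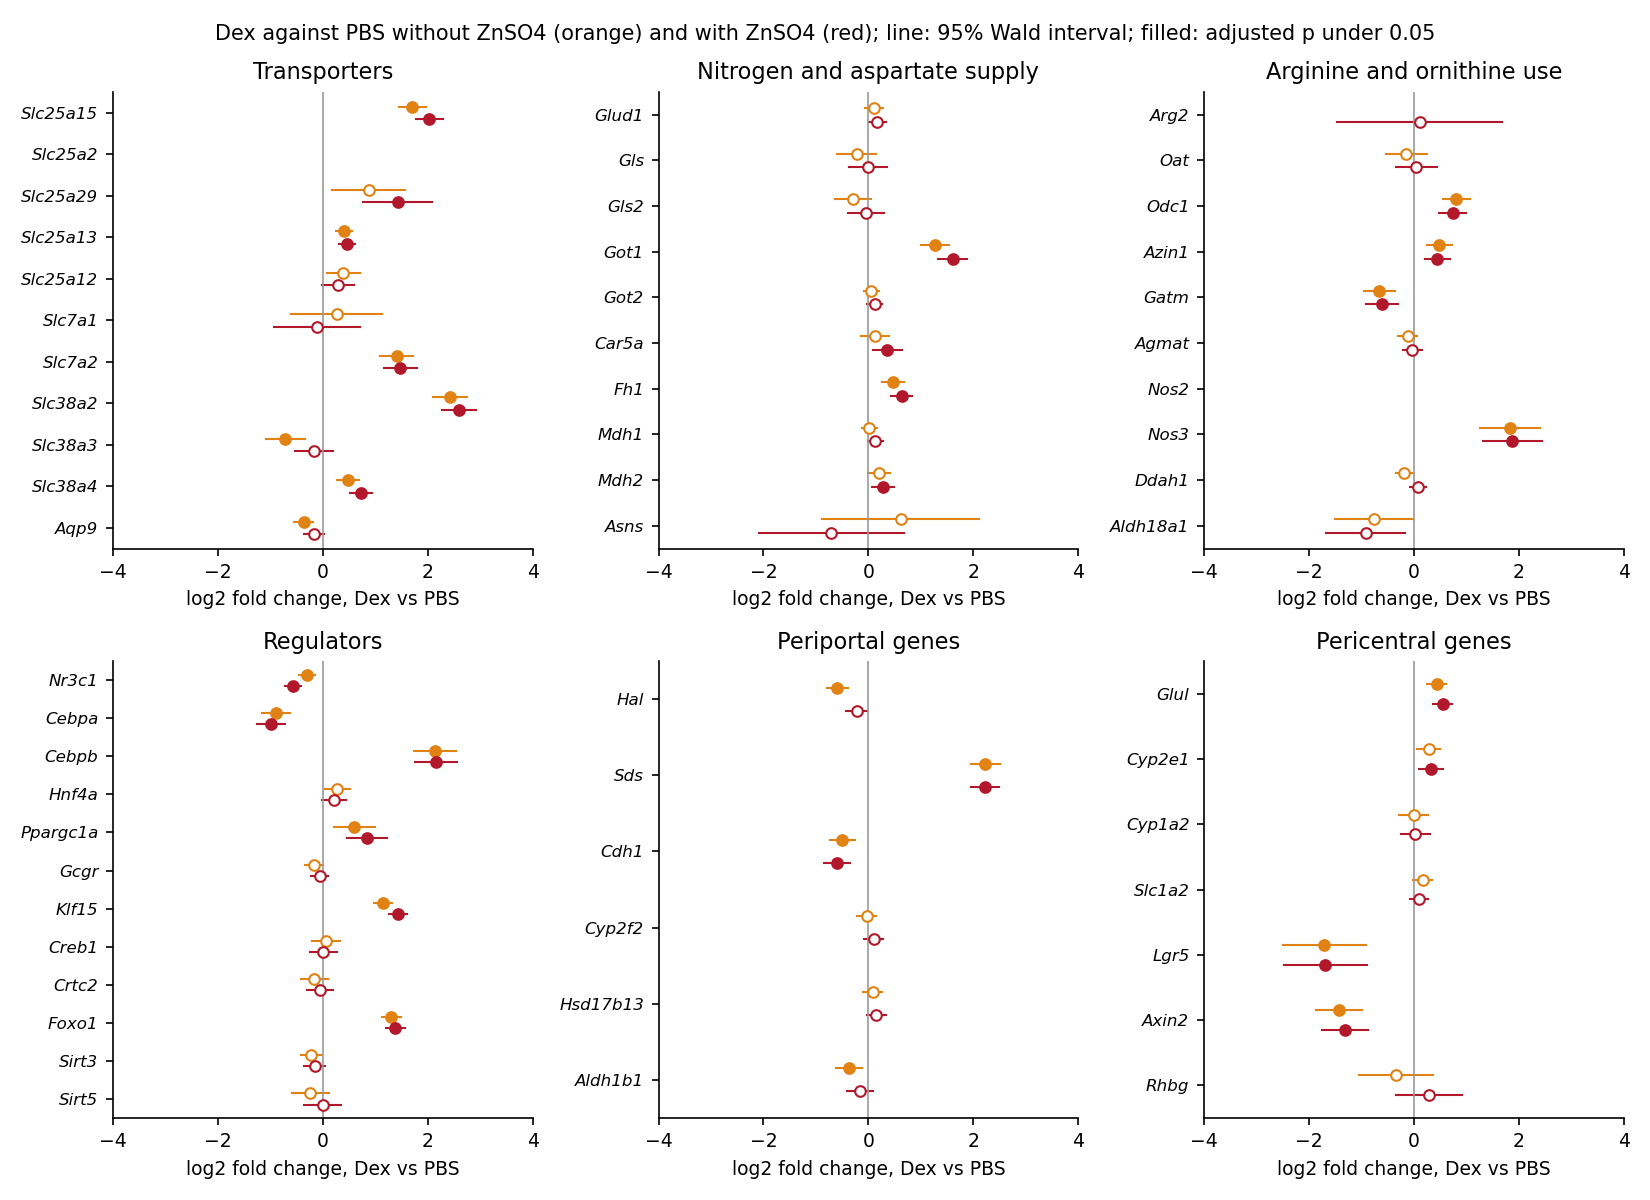
Log2 fold change with Dex against PBS (x axis) of the listed genes (rows), on plain water in orange and on ZnSO4 water in red, with 95% Wald intervals as lines. Filled points passed at a DESeq2 adjusted p under 0.05, and genes with too few counts to be tested have no point. Slc38a2, Slc25a15, Cebpb and Sds lie between 1.71 and 2.60 on both waters, and Lgr5, Axin2 and Cebpa lie below -0.8.

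Markers of cell types were read beside these results, in the additive fit, where 30.1% of 17089 genes passed with Dex. The sums below rest on size factors, and the markers were not read with total counts. That scaling moved the median log2 fold change of 9574 genes from 0.02 to -0.19 in this fit. Of 6 hepatocyte markers, Tat among them, 6 passed higher with Dex, and their summed level was 1143030 to 1349566 with PBS and 1557512 to 1701698 with Dex. Alb averaged 1.06e+06 to 1.32e+06 normalized counts by group and made up most of each sum. Of the intestinal epithelium, which also expresses Cps1 and Otc, 1 of 5 markers passed (lower), and the sums were 587 to 834. Fabp2 averaged 601 to 664 normalized counts by group and made up most of each sum. Lgals4 averaged 58.7 to 81.9, while Vil1, Sis and Cdx1 had at most 28, 16 and 3 counts in a library. Of macrophages that express Arg1, Retnla and Chil3 had at most 3 counts, so the sums (920 to 1232) rest almost wholly on Mrc1. Mrc1 averaged 965 to 1091 normalized counts by group, and 0 of 3 markers passed. For Kupffer cells 0 of 5 passed, for sinusoidal endothelium 2 of 4 (1 higher), for stellate cells 3 of 4 (2 higher), for bile duct 1 of 4 (lower), for neutrophils 0 of 4, for pancreas 0 of 4 with Prss2 and Cpa1 at 0, and for red blood cells 3 of 4 (higher). Their part in the changes of the 6 genes was not tested. In whole liver, a change in the number of cells of a type and a change in RNA per cell cannot be told apart.

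Across the 12 livers the members followed each other in part. These correlations describe log2 normalized counts over 12 libraries that share their split into Dex and PBS, and are given without a test. Ass1 and Asl had the highest Pearson's r among members (0.92, Spearman's rho 0.90), followed by Ass1 and Arg1 (0.86, rho 0.81) and Cps1 and Ass1 (0.85, rho 0.82). Nags was negative with Cps1 (r -0.51), Ass1 (-0.53) and Asl (-0.59), and Otc was near 0 with Cps1 (0.04) and Ass1 (0.05).

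Of 9573 other genes whose mean reached 50 in normalized counts, the pattern of Asl was most like that of Prob1 (r 0.98), the aspartate and glutamate carrier Slc25a13 (0.97) and the mitochondrial serine transporter Sfxn1 (0.97). Cps1 was most like Pank3 (0.92), Slco1a4 (0.91) and Spag9 (0.91), and Ass1 most like its copy Gm5424 (0.998), Naca (0.95) and Ttpa (0.94). For Nags the nearest were Dclk3 (0.97), Klhdc7a (0.96) and Cwf19l1 (0.96), all lower with Dex in the additive fit (log2 -1.03, -1.52 and -0.44). Otc was most like the water channel Aqp8 (0.93), urate oxidase Uox (0.91) and Tnfrsf19 (0.90). Arg1 was most like the alanine aminotransferase Gpt (0.95), the folate enzyme Aldh1l1 (0.95) and adenosine kinase Adk (0.95), of which none passed with Dex (log2 0.14, 0.19 and 0.11).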

How the data were processed

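RNA of 12 livers was made into stranded TruSeq libraries and read from a single end. The authors mapped the reads to mm10 with HISAT2 2.0.4 and counted them per Ensembl gene with featureCounts, leaving out multimapping reads. The deposited values are raw read counts without normalization, 1 column per mouse. The strand setting and the annotation release are not given in the sources used here. Symbols, coordinates and transcript lengths were taken from GENCODE M21 and promoters from RefSeq. 0 columns were left unused. Counts of these genes ran from 372 (Nags) to 77074 (Cps1) in a library, and the part of their spread due to depth was not measured. Taken over all genes with enough counts, not the members alone, chi-square per degree of freedom between replicates was 5.70 to 18.8, well above sampling noise.

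DESeq2 1.42.0 (R 4.3.3) was run across all genes on the 12 libraries together, each group having its own coefficient. The study's methods name DESeq2 with an FDR of 5%, and the joint fit was chosen here. Wald tests used unshrunken log2 fold changes and Benjamini-Hochberg adjustment. Additive fits gave the Dex and zinc effects over 12 libraries. Intervals are estimates ± 1.96 SE. With 3 against 3, an exact permutation test of 1 value cannot go below 0.1. Alternatives were edgeR 4.0.16 (quasi-likelihood, TMM, filterByExpr), TMM or total count factors, a filter of 10 counts in 3 libraries, no independent filtering, no Cook's distance filter, only the 6 libraries compared, the replicate number as a term, no fold change threshold and leaving out each library. Of each list at most 4 called genes per comparison are named by rule, those with the largest change. Likeness used log2(normalized count + 1). The members and lists were chosen with earlier results of these data known.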

Additional observations from a re-analysis of the deposited data

How the results depend on the processing

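Of 950 alternative values for the 48 member values, 888 kept the direction and the side of the threshold, 20 no longer passed, 16 newly passed and 26 changed sign. The sign changed by a non-passing edgeR estimate for Otc (-0.0041, zinc-Dex against zinc-PBS) and with total counts for Otc (-0.23, same comparison) and Arg1 (-0.14, water-Dex against water-PBS, and -0.063 in the additive fit). Leaving out 1 library changed the sign only of values that had not passed. Their ranges were, for zinc-PBS against water-PBS, -0.030 to 0.032 (Otc), -0.083 to 0.32 (Asl) and -0.036 to 0.27 (Arg1), and for water-Dex against water-PBS -0.053 to 0.26 (Arg1). They were -0.035 to 0.025 (Otc, zinc-Dex against zinc-PBS), -0.029 to 0.13 (Nags, zinc-Dex against water-Dex), -0.028 to 0.011 (Otc, zinc-Dex against water-PBS) and, for the interaction, -0.12 to 0.16 (Ass1), -0.034 to 0.37 (Asl) and -0.019 to 0.29 (Arg1). The cause was not tested.

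The members called numbered 0, 1, 1 and 0 for water-Dex against water-PBS, zinc-Dex against zinc-PBS, zinc-Dex against water-PBS and the additive Dex effect. Without the fold change threshold they numbered 3, 4, 4 and 4, and on leaving out 1 library 0 to 1 in each. With total counts the 1 in zinc-Dex against zinc-PBS was Nags (-0.92) in place of Asl (0.64), and they numbered 0 for zinc-Dex against water-PBS and 1, Nags at -0.81, for the additive Dex effect. In the other 4 comparisons 0 members were called under every alternative run.

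Counts over all genes moved by over 1.5 times in these cases. Zinc-PBS against water-PBS had 17, with 9 by edgeR, 42 without the threshold and 11 to 38 without 1 library. Zinc-Dex against water-Dex had 60, with 21, 173 and 26 to 101. The interaction had 5, with 3 by edgeR and 4 to 23 without 1 library. The zinc effect had 33, with 304 without the threshold and 16 to 52 without 1 library. Without the threshold the 4 Dex comparisons went from 1376, 1516, 1550 and 1796 to 3067, 3145, 3174 and 5142.

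Same-numbered libraries deviated together in 1 of 18 pairs by a correlation over 0.1 (range -0.204 to 0.191), and 6 of 36 best matches had the same number, so the numbers were not taken to pair the mice. With the replicate number as a block, Cps1 passed in water-Dex against water-PBS (log2 0.35, DESeq2 adjusted p 0.0455) and Ass1 did not (log2 0.41, DESeq2 adjusted p 0.0641). All genes called for the interaction then numbered 8 and for the zinc effect 21. No other member value crossed the threshold with the block.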
